A study of Mus musculus with 6 samples.

Results

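The genes described here are 43 enzymes and carriers that handle amino acids and their nitrogen, sulfur and methyl groups in the liver, out of 56674 genes in the count table. They were taken by name, and each had exactly 1 row. For description they were divided by pathway into 8 urea cycle genes, 4 genes of glutamate handling and transamination, 7 of aromatic amino acid breakdown, 5 of branched-chain amino acid breakdown, 10 of methionine and one-carbon metabolism, and 9 of histidine, serine, proline, lysine and glyoxylate metabolism. RNA was sequenced from livers of male C57BL/6 mice kept for 71 weeks, and the comparison asks what prolonged feeding of polyethylene microplastic (PE-MP), small particles of a common packaging plastic, does to hepatic gene expression. The groups were 3 libraries labelled normal chow and 3 labelled as chow containing PE-MP. Strain, sex, tissue and length of rearing were shared by both groups. The sources used here do not give the particle dose, particle size, cage or time of liver collection. Nor do the labels say whether the 3 libraries of a chow came from separate animals, so that every p-value below measures library-to-library spread only, and part of it may be technical.

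The liver is the main site at which the body disposes of amino acid nitrogen. Transaminases pass amino groups to glutamate, ammonia enters the urea cycle in mitochondria as carbamoyl phosphate, and arginase releases urea in the cytosol. The carbon skeletons are oxidised along separate routes for the aromatic and branched-chain amino acids. Methionine is activated to S-adenosylmethionine, the methyl donor of most methylation reactions, and the resulting homocysteine is either remethylated or drained into cysteine. Many of these enzymes are made almost only in hepatocytes, are induced by fasting hormones such as glucagon and glucocorticoids, and, as the urea cycle enzymes, lie mainly in the periportal zone of the lobule.

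Library totals ranged from 68357478 to 112566641 counts, and the count of a member in a single library ranged from 441 (Amt) to 466933 (Mat1a), so counting error was small beside the spread between libraries. Normal chow library 2 stood apart from the other libraries of its group. Its score on the first principal component of all tested genes was 6.01, against -88.9 and -79.7 in the other normal chow libraries and 50.1 to 57.4 under PE-MP chow. The 18S ribosomal RNA row Rn18s-rs5 took 11.2% of its counts. That share varied widely, at 2.92% and 1.15% in the other normal chow libraries and 5.98%, 3.10% and 0.334% under PE-MP chow. Hepatocyte markers were present in every library (5 of 6 have a row). In CPM, counts scaled to a common library total, their sum overlapped between the chows after scaling by trimmed-mean (TMM) factors, at 60979 to 71049 under normal chow and 65374 to 71000 under PE-MP chow, but not on library totals alone, at 53630 to 65590 and 73890 to 77430. By contrast, all 6 kidney tubule markers and 5 of 6 pancreatic acinar markers (Prss2, Cpa1, Pnlip, Ctrb1 and Cel) were at 0 in all libraries. On the TMM scale the summed Kupffer cell markers stood at 81.0 to 107 CPM under normal chow and 109 to 188 under PE-MP chow, and the summed sinusoidal endothelial markers at 83.3 to 105 and 113 to 160. Of the 6 markers of each list, 3 and 1 did not overlap between the chows on this scale. On the TMM scale 14.2% of all tested genes were higher under PE-MP chow without overlap and 11.8% lower. The stellate cell sum overlapped (313 to 337 and 168 to 324). The summed B and plasma cell markers lay at 19.3 to 58.6 CPM under normal chow and 6.43 to 10.3 under PE-MP chow. Those of T and NK cells (4.37 to 5.64 and 1.76 to 3.68), cholangiocytes (12.4 to 27.0 and 19.4 to 24.5) and adipocytes (6.65 to 17.8 and 3.73 to 5.83, with Lep at 0 in all libraries) were low in both groups. The cholangiocyte sums overlapped, while the B and plasma cell, T and NK cell and adipocyte sums were lower under PE-MP chow without overlap. No marker gene passed the adjusted p threshold. The part of these differences in the member values was not tested, and in whole liver fewer cells of a type and less RNA per cell cannot be told apart.

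None of the 43 genes differed between the chows at an adjusted p under 0.05 in edgeR's quasi-likelihood test, with Benjamini-Hochberg adjustment over the 18043 tested genes. All 43 had passed the filter on low counts. The smallest adjusted p of a member in edgeR was 0.244, for Mccc1. Over all tested genes the same rule called 0.00554% higher and 0.000% lower, so calls were nearly absent from the whole table too. At an unadjusted edgeR p under 0.05 there were 1 higher member (Tat) and 2 lower members (Mccc1 and Sardh), where 9.10% of all tested genes were higher and 8.82% lower. The 3 PE-MP chow values lay wholly above the 3 normal chow values for 1 member, Tat, and wholly below them for 1 member, Mccc1, against 14.2% and 11.8% of all tested genes. DESeq2 called 0 members in either direction at an adjusted p under 0.05, beside 3.10% of all tested genes higher and 3.48% lower, and with limma-voom the count was 0 as well. Whether the members' counts differ from these shares was not tested.

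The fitted log2 fold changes (PE-MP chow over normal chow) ran from -0.75 for Gpt to 0.53 for Tat. They were negative for 26 members and positive for 17, with a median of -0.08, beside 0.02 over all tested genes. The 95% interval of 34 of the 43 members lay wholly within 1 log2 unit of 0, so that a doubling or a halving of these genes lay outside their intervals. The same held for 49.7% of all tested genes. For 16 members the interval lay wholly within a 1.5-fold change. The median biological coefficient of variation, the spread between libraries of a group beyond counting error, was 0.211 for the members and 0.278 over all tested genes.

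**Figure D1:**
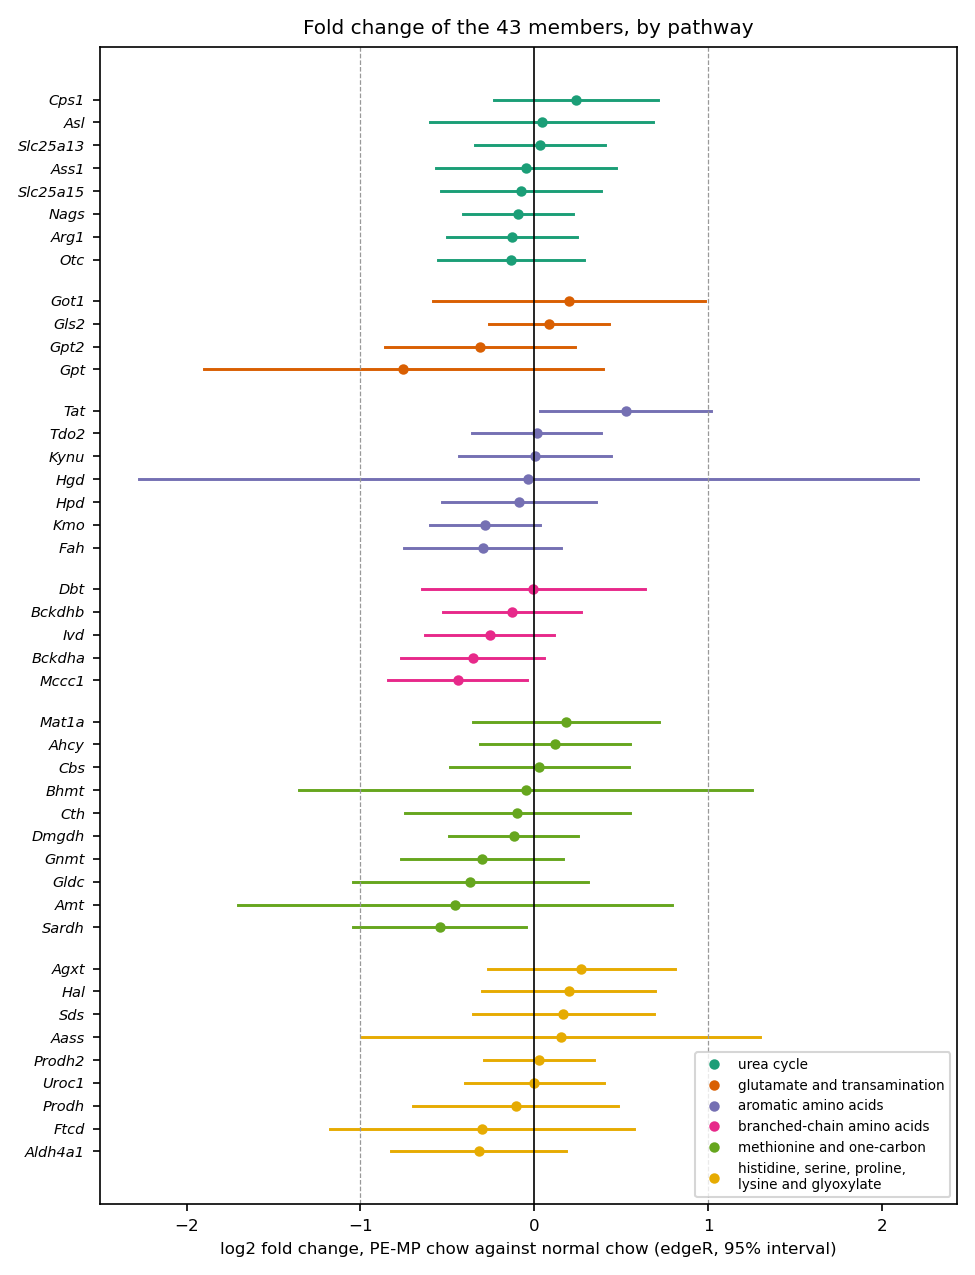
Log2 fold change of each of the 43 genes (PE-MP chow over normal chow, 3 libraries each) on the horizontal axis, with the 95% interval from edgeR's fit as a bar and 1 log2 unit either side of 0 as dashed lines. Tat lies highest at 0.53 and Gpt lowest at -0.75, and the widest interval belongs to Hgd (-2.28 to 2.21).

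The scale of measurement mattered for the direction of the list. As a share of all counts the 43 genes together took 2.58%, 2.07% and 2.88% of the normal chow libraries and 2.95%, 3.47% and 2.77% of the PE-MP chow libraries. The means were 2.51% ± 0.408 (SD, n = 3) and 3.06% ± 0.364 (SD, n = 3), and the ranges of the chows overlapped. Mitochondrially encoded mRNAs took 14.6% ± 0.446 of counts under normal chow and 8.91% ± 0.279 with PE-MP chow (SD, n = 3 each), which leaves different room for all other genes. With every gene above 1% of a library left out of the totals, members kept, the members' shares were 3.45% ± 0.377 and 3.89% ± 0.491. The values below, unless said otherwise, are CPM scaled by TMM factors, which ran from 0.879 to 0.923 under normal chow and from 1.07 to 1.17 under PE-MP chow. With library totals in place of these factors, the median over all tested genes moved from 0.02 to 0.32, the members' median moved to 0.21, 10 members were negative instead of 26, and 0 were called. Relative to the table as a whole the members' median was therefore below 0 under both scalings.

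Levels can be set side by side only per transcript length. Averaged over both chows, the highest CPM per kilobase belonged to Hpd (1618 ± 300 with normal chow, 1520 ± 217 with PE-MP chow, SD, n = 3 each), the dioxygenase that acts on the keto acid of tyrosine, and to Gnmt (1706 ± 389 and 1385 ± 146), the glycine methyltransferase that consumes S-adenosylmethionine. Next among the members came Ass1 (1456 ± 316 and 1410 ± 268) and Mat1a (1167 ± 250 and 1324 ± 281). Bhmt (987 ± 702 and 954 ± 187) and Ahcy (857 ± 165 and 932 ± 106) followed. Several of the members with the highest levels per length thus belonged to the methyl cycle. Levels were ranked among the members only, not among all liver transcripts. Neighbours in this order of 6 genes had overlapping spreads. The lowest level per kilobase was that of Amt, the aminomethyltransferase of the glycine cleavage system, at 7.09 ± 2.43 and 5.17 ± 3.07.

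**Figure D2:**
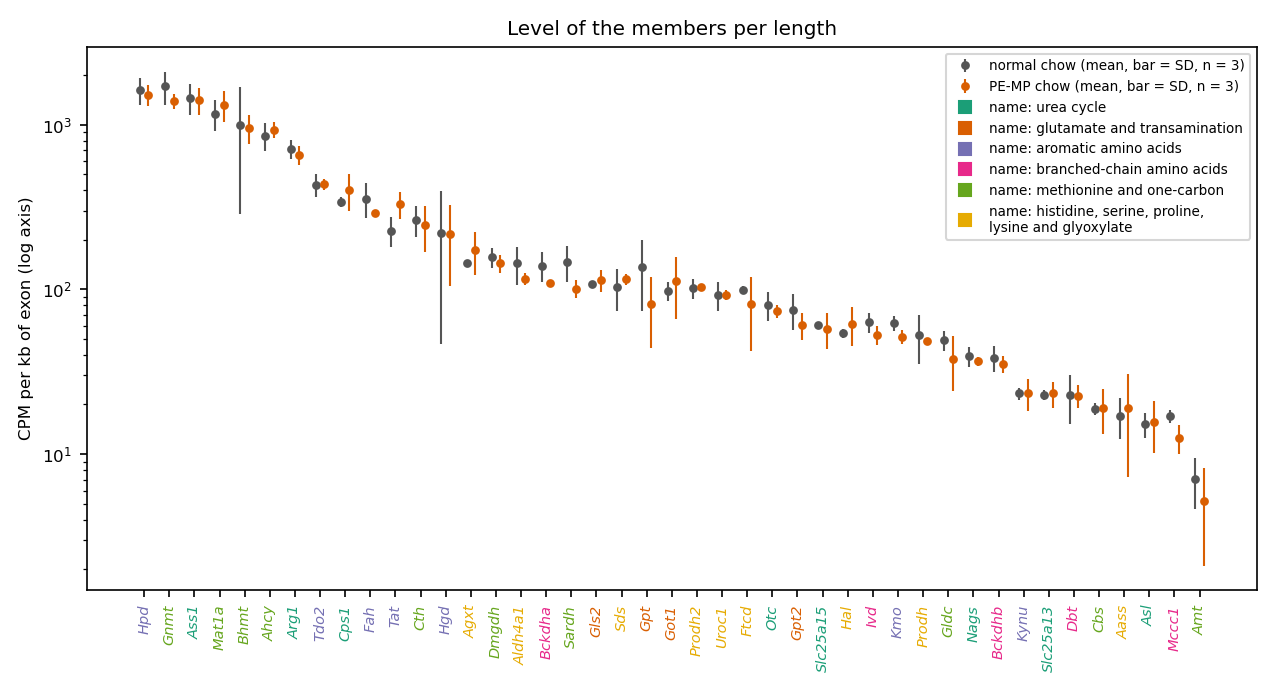
Level of each gene in TMM-scaled CPM per kilobase of transcript on a log axis, as the mean ± SD of 3 libraries of each chow. The genes span from Amt at the bottom to Hpd, Gnmt and Ass1 at the top, and the bars of the chows lie close together for most genes.

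For every urea cycle gene, 0 lay inside the 95% interval of the fold change. The group had 0 of 8 members called, a median log2 fold change of -0.06 and a range of only -0.13 to 0.24, and the 95% intervals of 8 of 8 lay within 1 log2 unit of 0. Those of 6 lay within a 1.5-fold change, and the widest, of Asl, ran from -0.60 to 0.68. Cps1, the mitochondrial synthetase that commits ammonia to the cycle, measured 2043, 1812 and 1806 CPM under normal chow and 2069, 2864 and 1748 CPM under PE-MP chow. PE-MP chow library 2 was the highest and PE-MP chow library 3 the lowest of all 6, so the groups overlapped, and the log2 fold change was 0.24 ± 0.20 (SE, n = 3 per chow; 95% interval -0.23 to 0.71; adjusted p = 0.557, edgeR). Otc, which joins carbamoyl phosphate to ornithine, measured 262, 385 and 378 CPM against 281, 326 and 329 CPM. Its lowest library was normal chow library 1 and all PE-MP values lay inside the normal chow range, with a log2 fold change of -0.13 ± 0.18 (SE).

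Ass1, which condenses citrulline with aspartate and was the most abundant urea cycle transcript per length, measured 2949, 1891 and 2570 CPM under normal chow and 2525, 2764 and 1884 CPM under PE-MP chow, for a log2 fold change of -0.05 ± 0.22 (SE). Arg1, the arginase that releases urea, measured 1181, 909 and 1081 CPM against 1090, 977 and 839 CPM, for a log2 fold change of -0.13 ± 0.16 (SE). In both genes the chows overlapped. The remaining members had values near 0. Asl, the lyase that yields arginine, had a log2 fold change of 0.04 ± 0.27 (SE), Nags, which makes the obligatory activator of Cps1, -0.09 ± 0.13, the ornithine carrier Slc25a15 -0.08 ± 0.19, and the aspartate-glutamate carrier Slc25a13 0.03 ± 0.16. Summed markers of the periportal zone, where the cycle is concentrated, overlapped at 2356 to 3822 CPM under normal chow and 3084 to 4637 under PE-MP chow, with 3 of 6 markers negative, and summed pericentral markers overlapped at 6908 to 13215 and 10150 to 11758. On library totals the periportal sums, 2120 to 3362 and 3363 to 4969, just failed to overlap. The summed urea cycle genes took 0.556% ± 0.0805 and 0.695% ± 0.104 of counts, and these shares overlapped (0.633% in normal chow library 1, 0.597% in PE-MP chow library 3). On that scale the median log2 fold change over all tested genes was 0.32. The part of zonation in these values was not tested.

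The transaminase Gpt had the most negative fold change of the 43, and it was not called. Gpt, the cytosolic alanine transaminase, measured 330, 121 and 323 CPM under normal chow and 105, 120 and 234 CPM under PE-MP chow. The groups overlapped because normal chow library 2 sat at the PE-MP level, and the log2 fold change was -0.75 ± 0.47 (SE; 95% interval -1.90 to 0.39; adjusted p = 0.444, edgeR). Gpt2, the mitochondrial form, measured 306, 195 and 320 CPM against 177, 258 and 225 CPM, again with normal chow library 2 low, for a log2 fold change of -0.31 ± 0.23 (SE).

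Got1, the cytosolic aspartate transaminase, went the other way in PE-MP chow libraries 1 and 2, with 226, 175 and 202 CPM under normal chow and 284, 286 and 122 CPM under PE-MP chow. PE-MP chow library 3 was the lowest of all 6, so the log2 fold change was 0.20 ± 0.33 (SE) and the groups overlapped. Gls2, the liver glutaminase that frees ammonia from glutamine, had the highest level per length of the group averaged over both chows (Gpt was higher under normal chow, at 137 against 107 CPM per kilobase). It measured 276, 264 and 288 CPM under normal chow against 311, 326 and 240 CPM under PE-MP chow, with a log2 fold change of 0.08 ± 0.15 (SE). The group median was -0.12, with 2 of 4 members negative.

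Among the aromatic genes, Tat was the only one of the 43 members whose PE-MP chow values all lay above normal chow. Tat, the tyrosine transaminase that starts tyrosine breakdown and a classical target of glucocorticoids, measured 600, 607 and 414 CPM under normal chow and 917, 784 and 633 CPM under PE-MP chow. The means were 540 ± 109 and 778 ± 142 (SD, n = 3 each), and the log2 fold change was 0.53 ± 0.21 (SE; 95% interval 0.03 to 1.02; adjusted p = 0.254, edgeR). It stayed positive in all 16 other settings tried, from 0.36 to 0.82, with an adjusted p in edgeR or the other tools never below 0.077.

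The enzymes after Tat in the same pathway had fold changes below 0, and the sign of each varied with the setting. For Fah it changed in 1 of the 16 other settings, where the log2 fold change was 0.0019. Hpd, the most abundant aromatic transcript per length, measured 2456, 1789 and 2568 CPM under normal chow and 2119, 2447 and 1837 CPM under PE-MP chow. The groups overlapped and the log2 fold change was -0.09 ± 0.19 (SE), changing sign in 4 of the 16 other settings. Hgd, the homogentisate dioxygenase, had -0.03 ± 0.92 with the largest spread of the set, and its sign changed in 7 settings, up to 0.51 with limma-voom. Fah, which completes the pathway by splitting fumarylacetoacetate, measured 651, 411 and 631 CPM under normal chow and 444, 477 and 458 CPM under PE-MP chow. The PE-MP values were tight, at 459 ± 16.8 (SD, n = 3), and below normal chow libraries 1 and 3 but above normal chow library 2, for a log2 fold change of -0.30 ± 0.19 (SE; adjusted p = 0.450, edgeR).

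Tryptophan breakdown was represented by Tdo2, its first dioxygenase, with a log2 fold change of 0.01 ± 0.16 (SE), by the kynureninase Kynu with 0.00 ± 0.18, and by Kmo. Kmo, the kynurenine monooxygenase, measured 254, 219 and 268 CPM under normal chow and 189, 226 and 195 CPM under PE-MP chow. The groups overlapped only through normal chow library 2 and PE-MP chow library 2, and the log2 fold change was -0.28 ± 0.13 (SE; 95% interval -0.60 to 0.04; adjusted p = 0.322, edgeR). Over the 7 aromatic genes the median was -0.03, with 4 negative, and the interval of 5 lay within 1 log2 unit of 0.

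All 5 branched-chain genes had a fold change below 0, with a median of -0.26, and none was called. With library totals in place of TMM factors this median was 0.04, so the sign depended on the scaling, although it stayed below the median of all genes in both cases. Across the 16 other settings the fold change of Dbt changed sign in 11, and those of Bckdhb and Ivd in 1 each. Bckdha and Mccc1 stayed negative in all settings. Mccc1, a subunit of the biotin-dependent carboxylase of leucine breakdown, measured 39.5, 46.1 and 39.4 CPM under normal chow and 25.6, 37.4 and 29.1 CPM under PE-MP chow. It was the only member whose PE-MP chow values all lay below normal chow, with means of 41.7 ± 3.87 and 30.7 ± 6.07 (SD, n = 3 each) and a log2 fold change of -0.44 ± 0.17 (SE; 95% interval -0.84 to -0.04; adjusted p = 0.244, edgeR). The gap between the groups was narrow, from 37.4 to 39.4 CPM.

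Bckdha, the E1 alpha subunit of the dehydrogenase complex that commits branched-chain keto acids to oxidation, measured 293, 202 and 299 CPM under normal chow and 208, 217 and 196 CPM under PE-MP chow. Normal chow library 2 again lay with the PE-MP libraries, and the log2 fold change was -0.35 ± 0.17 (SE; adjusted p = 0.329, edgeR). Annotated exons of B3gnt8 on the other strand cover 61.7% of the Bckdha exon bases, and no source used here gives the strand setting of the counting, so its level is uncertain. Ivd, the isovaleryl-CoA dehydrogenase, measured 247, 195 and 252 CPM against 173, 221 and 187 CPM, for -0.26 ± 0.16 (SE). The other subunits of the dehydrogenase complex lay nearer to 0, with log2 fold changes of -0.13 ± 0.17 for Bckdhb (E1 beta) and -0.0047 ± 0.27 for Dbt (the E2 core).

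Among the methionine and one-carbon genes the most negative fold change was that of Sardh, which was not called with all 6 libraries. Sardh, the mitochondrial sarcosine dehydrogenase that returns the methyl group of sarcosine to the folate pool, measured 724, 481 and 792 CPM under normal chow and 431, 522 and 416 CPM under PE-MP chow. Only PE-MP chow library 2 and normal chow library 2 crossed, and the log2 fold change was -0.54 ± 0.21 (SE; 95% interval -1.04 to -0.05; adjusted p = 0.247, edgeR). Dmgdh, the related dehydrogenase one step earlier in choline breakdown, had a log2 fold change of -0.12 ± 0.16 (SE).

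Gnmt, the enzyme that makes sarcosine from glycine, measured 1857, 1325 and 2114 CPM under normal chow and 1350, 1608 and 1344 CPM under PE-MP chow. The means were 1765 ± 403 and 1434 ± 151 (SD, n = 3 each), normal chow library 2 was the lowest of all 6, and the log2 fold change was -0.30 ± 0.20 (SE; adjusted p = 0.455, edgeR). Gldc, the decarboxylase of the glycine cleavage system, measured 214, 176 and 165 CPM against 189, 154 and 87.0 CPM, for -0.37 ± 0.28 (SE), with the low value in PE-MP chow library 3. Amt, its partner in the same system, had -0.46 ± 0.52 (SE) and was lowest in that library as well.

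Mat1a, Ahcy and Bhmt, the members of the methyl cycle besides Gnmt, did not come near the threshold. Mat1a, the liver methionine adenosyltransferase, had a log2 fold change of 0.18 ± 0.23 (SE) and Ahcy, which hydrolyses S-adenosylhomocysteine, 0.12 ± 0.18. Bhmt, which remethylates homocysteine with betaine, had -0.05 ± 0.54. In the transsulfuration branch to cysteine, the fold change was 0.03 ± 0.22 for Cbs and -0.10 ± 0.27 for Cth. Over the 10 genes the median was -0.11, with 7 negative, and the interval of 6 lay within 1 log2 unit of 0.

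The last group, of histidine, serine, proline, lysine and glyoxylate enzymes, had a median of 0.03 with 3 of 9 negative. Aldh4a1, the mitochondrial dehydrogenase that completes proline breakdown, measured 585, 341 and 534 CPM under normal chow and 355, 420 and 394 CPM under PE-MP chow. PE-MP values lay between normal chow library 2 and the other normal chow libraries, and the log2 fold change was -0.32 ± 0.21 (SE; adjusted p = 0.461, edgeR). Its annotated exons share 32.5% of their bases with Gm21969 on the same strand, so that reads could be divided between the 2 rows. Agxt, the peroxisomal transaminase that removes glyoxylate and, averaged over both chows, the most abundant gene of this group per length (level with Aldh4a1 under normal chow, at 143 and 144 CPM per kilobase), measured 213, 221 and 234 CPM against 303, 325 and 179 CPM, for 0.27 ± 0.23 (SE). Hal, the histidine ammonia-lyase, measured 303, 267 and 293 CPM against 357, 400 and 232 CPM, for 0.20 ± 0.21 (SE). Agxt and Hal shared the form seen in Got1, higher in PE-MP chow libraries 1 and 2 and lowest in PE-MP chow library 3.

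Further members of this group stood close to 0 or varied widely. The histidine enzymes Uroc1 (0.00088 ± 0.17) and Ftcd (-0.30 ± 0.36), the serine dehydratase Sds (0.17 ± 0.22), the proline dehydrogenase Prodh (-0.11 ± 0.25), the hydroxyproline dehydrogenase Prodh2 (0.03 ± 0.13) and the lysine enzyme Aass (0.15 ± 0.47) had these log2 fold changes (each ± SE), and 0 lay inside each interval.

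Single libraries shaped many of these values. Of the 43 genes, 17 had their lowest CPM in PE-MP chow library 3 and 12 in normal chow library 2, while PE-MP chow library 3 was the highest library for 0 genes. The median deviation of the members from their own means was -0.15 log2 units in normal chow library 2 and -0.20 in PE-MP chow library 3, against 0.19 in normal chow library 1. Without PE-MP chow library 3 the median log2 fold change of the members was 0.00 with 21 negative, and without normal chow library 2 it was -0.13 with 31 negative.

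**Figure D3:**
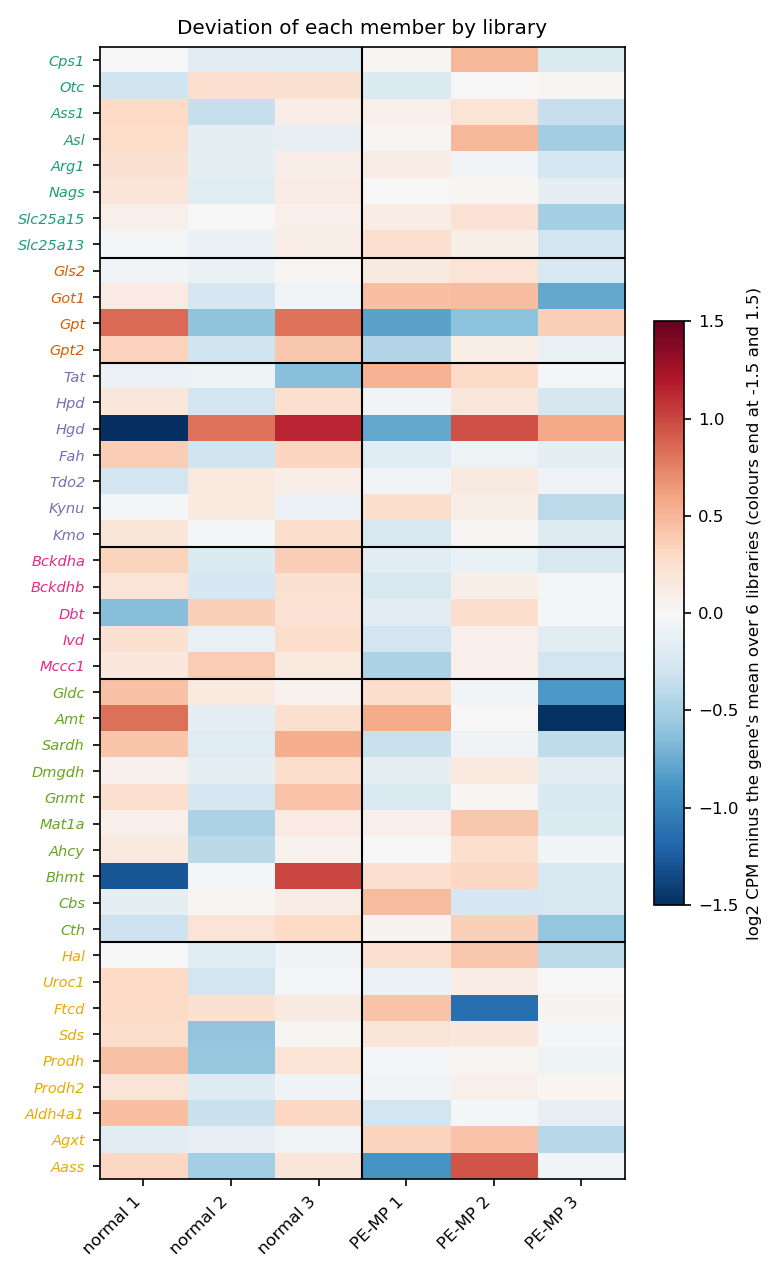
Each of the 43 genes (rows, by pathway) in each of the 6 libraries (columns), as the difference of log2 CPM from the gene's mean over the libraries. PE-MP chow library 3 is the lowest library for 17 genes and normal chow library 2 for 12, and PE-MP chow library 3 is the highest for none.

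Leaving out normal chow library 2 was the only setting of those tried that called any member. In that comparison of 2 normal chow with 3 PE-MP chow libraries, 3 members were lower and 0 were higher at an adjusted p under 0.05 in edgeR, where 3.27% of all tested genes were lower and 2.38% higher. Sardh had a log2 fold change of -0.74 ± 0.13 (SE; adjusted p = 0.0429, edgeR), Bckdha -0.52 ± 0.09 (adjusted p = 0.0421, edgeR) and Fah -0.48 ± 0.09 (adjusted p = 0.0440, edgeR). They belong to different pathways, the oxidation of sarcosine, of branched-chain keto acids and of tyrosine. With all 6 libraries none of the 3 passed, as given above.

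The promoters of these 3 genes are shown because they carried the only calls, with those of Hgd and Bhmt, the abundant members with the most uneven levels, for comparison. Each is the 150 bases before the transcription start, 5′ to 3′ on the gene's own strand, from RefSeq on build GRCm38.p6, which is not the build named for the count files. Capitals mark any match to 3 motifs that were searched on both strands, a match on the other strand appearing as its reverse complement, and no match overlapped another in these 5. The TATA motif was searched as TATAAA. For the CCAAT box its name is also the letters searched. The GC box was searched as GGGCGG. The intervals are chr2:27247304-27247453 (minus strand) for Sardh, chr7:25658762-25658911 (minus) for Bckdha, chr7:84605943-84606092 (minus) for Fah, chr16:37580003-37580152 (plus) for Hgd and chr13:93637759-93637908 (minus) for Bhmt.
Sardh: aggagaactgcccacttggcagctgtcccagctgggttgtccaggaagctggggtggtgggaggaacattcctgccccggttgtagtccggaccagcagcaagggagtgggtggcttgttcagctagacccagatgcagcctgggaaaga
Bckdha: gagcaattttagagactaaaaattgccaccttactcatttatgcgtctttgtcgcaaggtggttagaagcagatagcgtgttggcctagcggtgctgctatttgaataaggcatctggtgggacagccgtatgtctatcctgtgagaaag
Fah: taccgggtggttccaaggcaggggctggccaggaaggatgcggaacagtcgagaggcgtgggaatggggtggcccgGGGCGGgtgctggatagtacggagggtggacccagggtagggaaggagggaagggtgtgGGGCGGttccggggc
Hgd: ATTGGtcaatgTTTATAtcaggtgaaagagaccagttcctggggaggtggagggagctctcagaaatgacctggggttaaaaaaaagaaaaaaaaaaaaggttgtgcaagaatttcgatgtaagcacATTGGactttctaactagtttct
Bhmt: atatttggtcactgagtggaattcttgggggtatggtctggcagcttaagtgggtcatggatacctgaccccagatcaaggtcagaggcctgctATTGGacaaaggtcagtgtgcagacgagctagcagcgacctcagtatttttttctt
Neither Sardh nor Bckdha held any of the 3 motifs in this window, Fah held 2 GC boxes, Hgd held 1 TATA motif and 2 CCAAT boxes, and Bhmt held 1 CCAAT box. Of the 33 members with a promoter in the RefSeq table, 3 held the TATA motif, 16 the CCAAT box and 12 the GC box, beside 7.57%, 24.5% and 28.6% of all 32851 promoters of that length. A member was counted if any of its promoters matched, while the 32851 promoters were counted singly. The units therefore differ, and the counts cannot be read as an excess or a lack among the members. A match describes letters in the window and not a bound factor.

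Hgd and Bhmt were chosen after their values were seen, for the spread between libraries of the same chow. Hgd measured 41.3, 482 and 603 CPM under normal chow and 161, 533 and 406 CPM under PE-MP chow. Normal chow library 1 stood 14.6-fold below the highest library of its group, and the first PE-MP chow library was low as well. With a biological coefficient of variation of 0.741, at the 94.3 percentile of all tested genes, the interval of its log2 fold change spanned -2.28 to 2.21. Bhmt measured 897, 2131 and 4348 CPM against 2583, 2702 and 1841 CPM, a 4.85-fold range within normal chow and a 1.47-fold range under PE-MP chow, with an interval of -1.35 to 1.25. For both genes the difference between the chows was smaller than the spread inside normal chow, and both a doubling and a halving lay inside the interval.

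**Figure D4:**
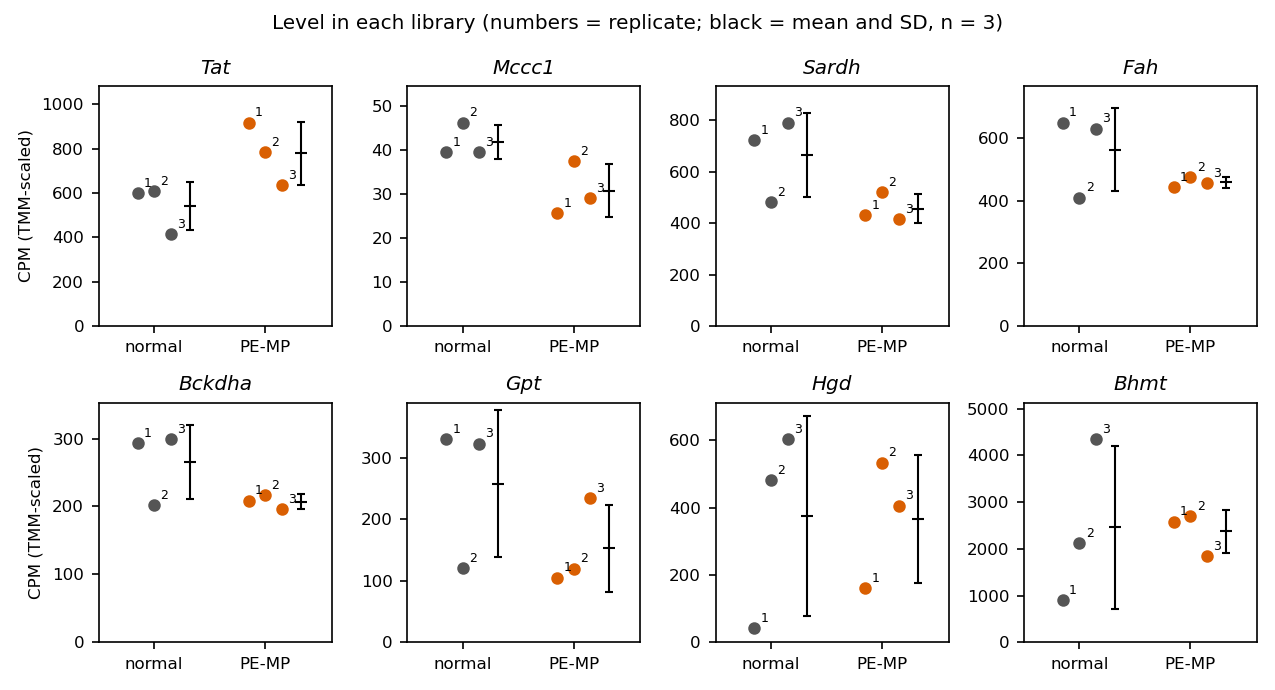
TMM-scaled CPM of Tat, Mccc1, Sardh, Fah, Bckdha, Gpt, Hgd and Bhmt in each library, by chow, with the group mean. Tat and Mccc1 are the genes whose chows do not overlap, and in Sardh, Fah, Bckdha and Gpt normal chow library 2 lies at the level of the PE-MP chow libraries.

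Pairs of members that work together were compared by their ratio within each library, which no scaling of libraries can change. The log2 ratio of Sardh to Dmgdh was 0.63, 0.25 and 0.57 in the normal chow libraries and 0.09, 0.08 and 0.07 in the PE-MP chow libraries. All 3 PE-MP chow ratios lay below all 3 normal chow ratios, by 0.40 on average, and the two-sided exact permutation test gave p = 0.1, the smallest value that 3 against 3 libraries allow, or 0.6 after Benjamini-Hochberg adjustment over the 6 pairs. The ratio of Bckdha to Bckdhb was 2.09 ± 0.05 and 1.87 ± 0.17 (SD, n = 3 each; exact permutation p = 0.2, adjusted 0.6), and that of Gpt to Gpt2 was -0.19 ± 0.44 and -0.60 ± 0.59 (exact permutation p = 0.3, adjusted 0.6). Prodh to Prodh2, Cbs to Cth and Gldc to Amt had exact permutation p of 0.8, 0.8 and 0.6 (each 0.8 after adjustment). Their differences, and that of Gpt to Gpt2, were smaller than the SD within normal chow.

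The wider pathways were read from 93 further genes of the same routes, of which 92 passed the filter and Tdh did not. In edgeR 0 of the 92 passed an adjusted p of 0.05, and at an unadjusted p under 0.05 there were 6 higher and 12 lower, where 9.10% and 8.82% of all tested genes were. The median log2 fold change was -0.16, with 62 negative and 30 positive. DESeq2 called 1 higher (Kyat3) and 5 lower (Pcbd1, Mcee, Gamt, Phgdh and Gcat) at an adjusted p under 0.05, where 3.10% and 3.48% of all tested genes were. At the same threshold without normal chow library 2, edgeR called 2 higher (Kyat3 and Pts, the latter named here only for that call) and 11 lower. Of all tested genes, 2.38% were called higher and 3.27% lower in that fit.

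**Figure D5:**
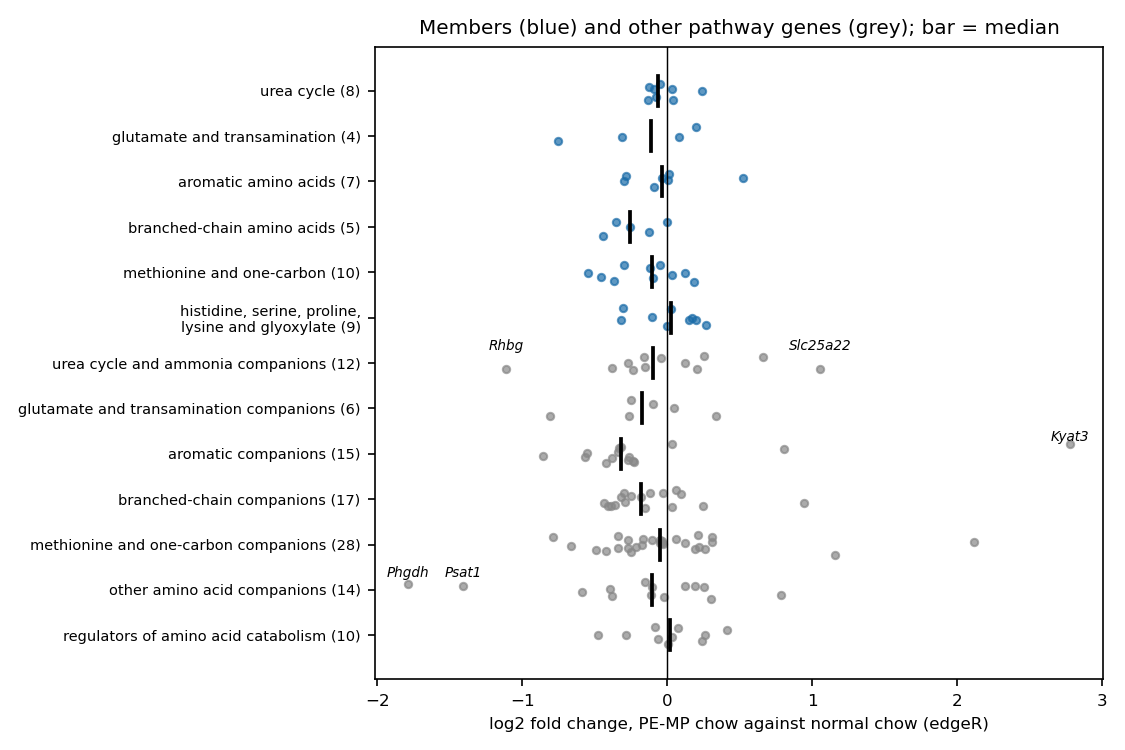
Log2 fold change (PE-MP chow over normal chow) of the 43 members in blue and of the 92 further pathway genes and the 10 regulators in grey, by pathway, with a line at each median. The aromatic pathway holds both the highest grey point, Kyat3 at 2.78, and the lowest grey median, -0.32.

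Kyat3, a kynurenine aminotransferase, showed the largest difference among all of these genes. It measured 12.2, 9.82 and 5.37 CPM under normal chow and 44.5, 79.8 and 63.7 CPM under PE-MP chow, with every PE-MP value above every normal chow value. The log2 fold change was 2.78 ± 0.36 (SE; 95% interval 1.91 to 3.65), with an adjusted p of 0.0753 in edgeR and 6.30e-12 in DESeq2. Without normal chow library 2 it was 2.83 and the adjusted p was 0.0438 in edgeR. Tdo2, Kynu and Kmo, the members around it in tryptophan breakdown, had log2 fold changes of 0.01, 0.00 and -0.28. Kyat1 and Aadat, also kynurenine aminotransferases, went the other way, at -0.85 ± 0.39 and -0.23 ± 0.16 (SE), with overlapping groups. The 15 further aromatic genes, Kyat3 included, had a median of -0.32 with 12 negative, among them Pcbd1, which recycles a pterin cofactor, at 211, 177 and 236 CPM against 137, 137 and 147 CPM. Pcbd1 had a log2 fold change of -0.57 ± 0.14 (SE; adjusted p = 0.140 in edgeR and 0.0113 in DESeq2), and Qprt, of nicotinate synthesis from tryptophan, -0.56 ± 0.20.

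Around the urea cycle the 12 further genes had a median of -0.10. Glul, the glutamine synthetase of the pericentral zone, measured 923 ± 236 and 784 ± 85.4 CPM (SD, n = 3 each), Oat, the ornithine transaminase of the same zone, 1450 ± 509 and 1204 ± 287 CPM, and Glud1, the glutamate dehydrogenase, 937 ± 33.8 and 908 ± 87.4 CPM, each with overlapping groups. Slc7a2, a cationic amino acid transporter that takes up arginine, measured 281, 542 and 533 CPM against 651, 827 and 665 CPM without overlap, for a log2 fold change of 0.66 ± 0.27 (SE; adjusted p = 0.264, edgeR). The glutamate carrier Slc25a22 had 1.06 ± 0.39, and the ammonium transporter Rhbg -1.11 ± 0.39, with 61.4% of its exon bases shared with Gm38392 on the same strand. Glutamate and transamination genes had a median of -0.18 over 6, with Asrgl1 at -0.26 ± 0.16, Got2 at -0.25 ± 0.16 and Asns at -0.81 ± 0.60.

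The branched-chain genes outside the member list had a median of -0.18 over 17. Mcee, of the propionate route (-0.44 ± 0.12, SE), and Hibadh, of valine breakdown (-0.39 ± 0.13), were negative, while Bcat2, the branched-chain transaminase that hepatocytes largely lack, was positive (0.95 ± 0.32), and none was called in edgeR. Methionine and one-carbon genes had a median of -0.05 over 28. Gamt, which uses S-adenosylmethionine to make creatine, measured 172, 108 and 198 CPM under normal chow and 82.4, 89.0 and 106 CPM under PE-MP chow. Its groups did not overlap, by a gap of 106 to 108 CPM, and the log2 fold change was -0.79 ± 0.24 (SE; adjusted p = 0.184, edgeR). The taurine enzyme Csad (-0.66 ± 0.24) and Pemt, which methylates phosphatidylethanolamine (-0.49 ± 0.19), were also negative. Nnmt, which methylates nicotinamide, stood at 0.19 ± 0.26. Mat2a, the adenosyltransferase of cells outside the adult hepatocyte, measured 59.3 ± 4.48 and 68.8 ± 7.79 CPM (SD, n = 3 each) and Shmt1, the cytosolic serine hydroxymethyltransferase, had a log2 fold change of 0.26 ± 0.15.

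Of the other amino acid genes, Phgdh, the entry to serine synthesis, was low in every library (0.783 ± 0.386 and 0.227 ± 0.0596 CPM, SD, n = 3 each), with a log2 fold change of -1.79 ± 0.47 (SE; adjusted p = 0.154, edgeR). Psat1, the next enzyme of serine synthesis, had -1.41 ± 0.52, and Gcat, of threonine breakdown, -0.59 ± 0.16, in a list of 14 with a median of -0.11. The 10 regulators of amino acid catabolism had a median of 0.02. None reached an unadjusted p under 0.05 in edgeR and the chows overlapped in all 10. The nearest were the glucagon receptor Gcgr (0.24 ± 0.14, SE), the coactivator Ppargc1a (0.41 ± 0.26) and the transcription factor Foxo1 (-0.29 ± 0.18).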

How the data were processed

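Poly(A)-selected RNA was sequenced with a directional kit, per the labels' protocols. The authors deposited whole-number read counts per gene, named by symbol. The submitters' processing notes name bcl2fastq and GRCm39, and the tools for alignment and counting, the annotation and the strandedness were not given in the sources used here. The deposited counts were the same in the table of the whole series, which was not used further. Chow was taken from the sample labels. edgeR 4.0.16 in R 4.3.3 (filterByExpr, TMM factors, robust quasi-likelihood F test) was fitted to the whole table with chow as the only term, and Benjamini-Hochberg adjustment ran over all 18043 tested genes, with a threshold of 0.05. CPM values are scaled by TMM factors. Ratios of pairs used a prior count of 0.5. Fold changes are PE-MP chow over normal chow. Standard errors and 95% intervals come from the same fit, and overlap was read from the CPM of single libraries. The fit was also run on counts simulated from the genes' mean levels and its own dispersions, with no outlying library built in. No statement here rests on that run. Alternatives were DESeq2 1.42.0, limma-voom (limma 3.58.1), other size factors, other filters (none, or a CPM of 1), each library left out, the replicate number as a block, genes over 1% of a library left out, a length and GC trend taken out, and, chosen after the data were seen, library totals without factors.

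Transcript lengths, GC content and exon overlaps came from GENCODE M21, matched by symbol to 95.0% of tested genes, and promoters from RefSeq. No coordinates were carried between builds. The members and lists were chosen with earlier results of these data known. Per-library values are given for the 3 members of each pathway with the smallest p, for members called in any fit that leaves out 1 library and for the member of each pathway with the highest level per length over all libraries. Of each further list the 3 genes with the smallest p are named, with Glul, Oat, Glud1, Mat2a, Shmt1 and Nnmt whatever their values (other genes of that rule are not reported here), and 6 pairs of members are compared. Hgd, Bhmt, Pts, Kyat1 and Aadat were named after their values were seen.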

Additional observations from a re-analysis of the deposited data

How the results depend on the processing

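Across 16 other settings, members called lower ranged from 0 to 3 when 1 library was left out, with 3 without normal chow library 2 and 0 in all other settings, and members called higher stayed at 0. Their median log2 fold change ranged from -0.17 to 0.00 when 1 library was left out and moved to 0.21 with library totals without factors, where the median of all genes moved by as much. Of the 43 members, 15 kept the sign of their fold change in all settings and 28 changed it in at least 1. These settings include library totals without factors, with which 10 members were negative, against 26 in the main fit. The further pathway genes were more dependent on the tool: 1 was called higher and 5 lower by DESeq2, 1 higher at an adjusted p of 0.1 in edgeR, and 0 to 2 higher and 0 to 11 lower when 1 library was left out. The cause was not tested. Over all tested genes the calls numbered 1 higher and 0 lower in edgeR, 559 and 627 in DESeq2, 7 and 12 in limma-voom, 15 and 8 with no filter, 11 and 11 with a stricter filter, 10 and 0 with library totals, and 452 and 623 without normal chow library 2. Same-numbered libraries correlated at -0.005, 0.029 and 0.119 in their deviations, and only the last exceeded 0.1, the lower limit set for pairing. Differently numbered libraries correlated at -0.136 to 0.113. With so few libraries these values cannot decide whether the replicate numbers pair the samples. With the replicate number as a block, the median of the members was -0.05 and 0 genes were called.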
